A study of Homo sapiens with 6 samples.

Results

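The enzymes that build cholesterol and fatty acids, with their regulators, were followed as a set of 33 genes chosen by name from the 58735 genes of the table. The set held 8 genes of the mevalonate steps, 11 genes of the steps from squalene to cholesterol, 7 regulators and lipid-handling genes, and 7 genes of fatty acid synthesis and desaturation. All 33 had a mean of at least 1 FPKM (fragments per kilobase of gene length, scaled to library size) over the 6 libraries, so all were tested. The cells came from the human induced pluripotent stem cell line Ff-I01s01, a reprogrammed line with the genotype WT, and were differentiated towards pancreatic progenitors. Both groups went through the same step, named S3, between day 6 and day 8. The medium of the Control group (n = 3 libraries) held no K-3, and that of the other group (n = 3 libraries) held K-3 at 2 µM. K-3 is a code name. All cells came from a single line. Nothing in the labels says that replicates were differentiated separately, so every p-value here reflects library-to-library spread that may be technical.

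Cells make cholesterol from acetyl-CoA through mevalonate, isoprenoid diphosphates, squalene and lanosterol, and they make fatty acids from the same acetyl-CoA through malonyl-CoA. The transcription factors SREBP-1 and SREBP-2 (genes SREBF1 and SREBF2) switch on both branches. They sit in the endoplasmic reticulum bound to SCAP, and the INSIG proteins hold the complex there while sterols are plentiful. When sterols run short, SCAP carries SREBP to the Golgi, where proteases release the part that enters the nucleus. SREBP-2 is known mainly for the sterol genes and SREBP-1c for the fatty acid genes, and the factors NF-Y and SP1 bind beside SREBP at many of these promoters.

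The 250 bases upstream of a RefSeq start are shown for 5 members, to set genes that fell beside genes that did not pass the test. MVD, HMGCS1 and LSS are sterol enzymes that fell with K-3, SREBF2 encodes SREBP-2, and SCD is the fatty acid desaturase with the change nearest 0 in its class. Sequences are from RefSeq (build GRCh38.p14), read 5′ to 3′ on the gene's strand. The windows of all 5 reach into the gene's deposited span, whose first base lies upstream of the RefSeq start, so their last bases can be transcribed. Capitals mark the NF-Y box (CCAAT), the SP1 box (GGGCGG) and the core of the sterol regulatory element (TCACNCCAC), each on either strand. MVD lies at chr16:88663092-88663341, - strand, HMGCS1 at chr5:43313413-43313662, - strand (the upstream one of its 2 RefSeq starts, since the other held no NF-Y box), LSS at chr21:46228775-46229024, - strand, SREBF2 at chr22:41832855-41833104, + strand and SCD at chr10:100346983-100347232, + strand.
MVD: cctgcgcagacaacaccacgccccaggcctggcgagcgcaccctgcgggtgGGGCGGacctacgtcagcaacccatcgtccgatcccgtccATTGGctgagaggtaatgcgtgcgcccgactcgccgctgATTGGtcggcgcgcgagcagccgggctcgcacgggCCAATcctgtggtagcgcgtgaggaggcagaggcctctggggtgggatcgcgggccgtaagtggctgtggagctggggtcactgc
HMGCS1: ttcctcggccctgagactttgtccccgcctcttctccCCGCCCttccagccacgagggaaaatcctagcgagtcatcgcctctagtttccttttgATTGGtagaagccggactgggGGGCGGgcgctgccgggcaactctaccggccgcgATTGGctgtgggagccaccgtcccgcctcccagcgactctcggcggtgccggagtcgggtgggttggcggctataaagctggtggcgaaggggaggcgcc
LSS: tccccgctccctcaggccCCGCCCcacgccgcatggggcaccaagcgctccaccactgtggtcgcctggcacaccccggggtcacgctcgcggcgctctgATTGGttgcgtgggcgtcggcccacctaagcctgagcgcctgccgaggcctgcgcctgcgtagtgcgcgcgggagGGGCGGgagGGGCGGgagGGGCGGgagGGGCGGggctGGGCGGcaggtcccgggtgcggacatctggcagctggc
SREBF2: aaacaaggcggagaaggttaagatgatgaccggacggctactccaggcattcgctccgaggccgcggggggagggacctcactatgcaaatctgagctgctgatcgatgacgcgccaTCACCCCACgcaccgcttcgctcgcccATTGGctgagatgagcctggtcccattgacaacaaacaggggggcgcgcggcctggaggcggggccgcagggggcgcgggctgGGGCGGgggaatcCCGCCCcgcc
SCD: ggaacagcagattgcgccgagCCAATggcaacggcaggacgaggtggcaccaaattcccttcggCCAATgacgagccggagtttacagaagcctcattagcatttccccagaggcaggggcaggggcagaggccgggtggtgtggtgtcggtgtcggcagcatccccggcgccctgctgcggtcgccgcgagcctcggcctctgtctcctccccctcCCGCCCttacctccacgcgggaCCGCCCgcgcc

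MVD held 3 NF-Y boxes, HMGCS1 and SCD held 2 each, and LSS and SREBF2 held 1 each. Of the matched members, SREBF2 alone held the sterol regulatory element core, 133 bases before its start, with an NF-Y box 106 bases before the start. RefSeq promoters were found for 29 of the 33 members, with 43 starts; ACAT2, FDFT1, SQLE and FASN had no entry. An NF-Y box was present before at least 1 start of 14 of 16 matched sterol enzymes, 3 of 7 regulators and 3 of 6 matched fatty acid genes. Of the 9231 tested genes with an entry, 41.7% held one. At least 2 NF-Y boxes stood before 9 of the 16 sterol enzymes and 3 of the 6 fatty acid genes, against 15.5% of those 9231 genes. Members had 1.48 starts per gene and the 9231 genes had 1.46. The SP1 box stood before 28 of 29 members and 76.1% of the tested genes, the E-box CANNTG before 17 of 29 and 60.1%, and the sterol regulatory element core before 1 of 29 and 1.19%. Both strands were searched, an E-box can share letters with an NF-Y box or a sterol regulatory element core, and a match describes the letters only. Sites with other letters or outside the 250 bases were not counted, so a missing match does not show that a gene lacks the element.

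**Figure D1:**
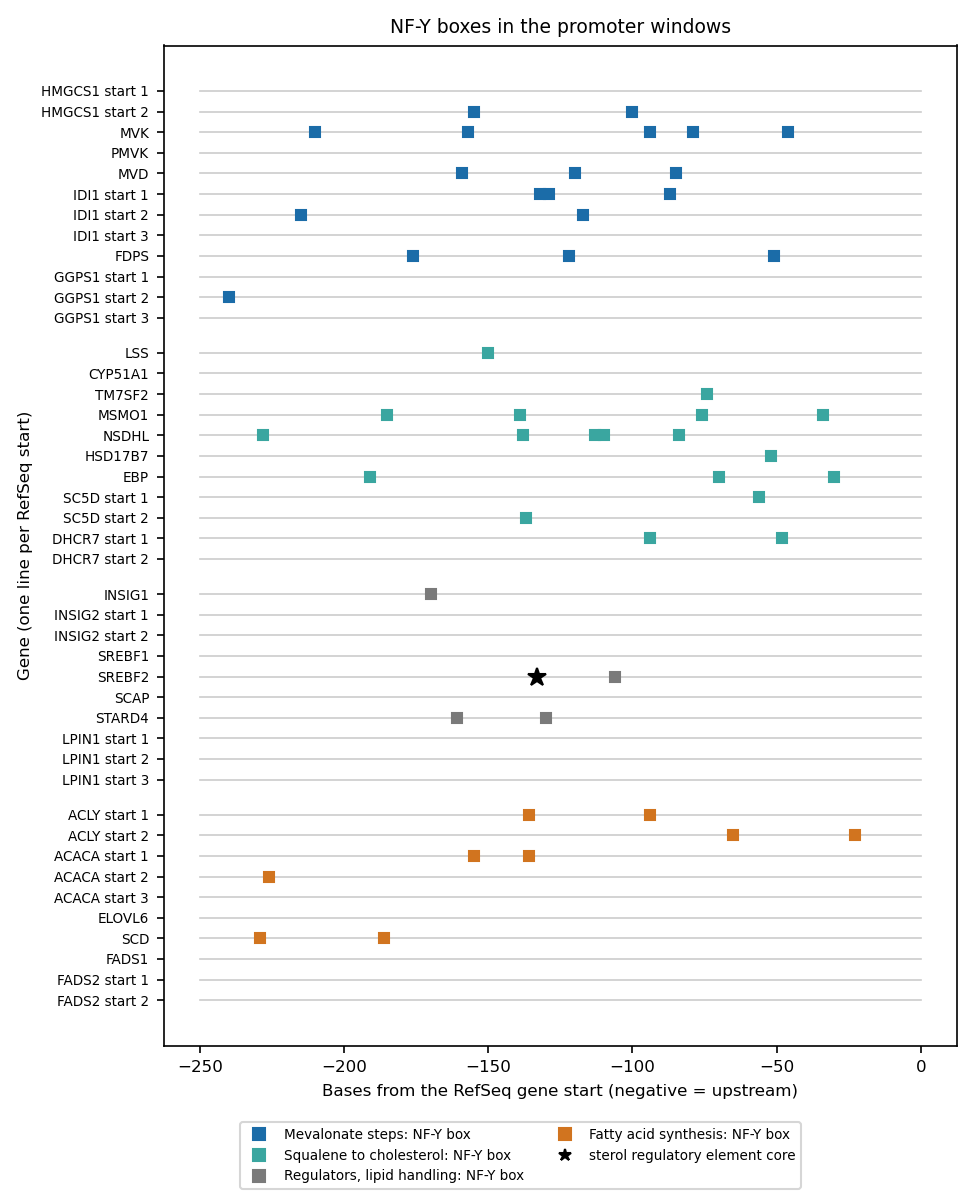
Position of NF-Y boxes (squares, coloured by gene class) and of the sterol regulatory element core (star) in the 250 bases upstream of each RefSeq start of the 29 matched members; the x axis gives bases from the start and each line is 1 start. Boxes stand before 14 of 16 matched sterol enzymes and 3 of 6 matched fatty acid genes, and the only star is SREBF2.

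The libraries held 35371195 to 38809532 fragments in genes in Control and 41876557 to 50245547 with K-3, so every K-3 library was deeper. Members had between 277 fragments (CYP51A1) and 71646 fragments (SCD) in a library. Of 10 pancreatic progenitor markers, 8 were tested and 0 passed with limma, where 1.14% of all tested genes were called higher. With voom 4 were called higher at an adjusted p under 0.05, against 474 of 12989 tested genes. At an unadjusted p under 0.05 with limma 4 were higher, against 11.7% of all tested genes. The summed level of the 10 markers was 466 to 500.5 FPKM in Control and 521 to 544 FPKM with K-3. The 4 at an unadjusted p under 0.05 with limma were PDX1, SOX9, FOXA2 and GATA4. In each, every K-3 library lay above every Control library, as in 15.4% of tested genes. PDX1 had 14.3 ± 3.2 FPKM in Control and 22.2 ± 1.2 FPKM with K-3 (limma adjusted p = 0.0637). Of the 8 tested markers, 2 had a negative log2 fold change. PTF1A stayed at or under 0.0854 FPKM, and NKX6-1 was at 0 in every library, where 3 fragments would give 0.0192 to 0.027 FPKM. Hepatocyte markers, led by TTR and AFP, summed to 2339 to 2612 FPKM in Control and 2239 to 2395 FPKM with K-3, with AHSG and TF each under 0.1 FPKM in every library. Pluripotency markers summed to 359 to 392 FPKM and 358 to 365 FPKM. Nearly all of that sum was LIN28A, with a mean of 353 FPKM over the 6 libraries. DPPA4 had a mean of 11.1 FPKM and TDGF1 of 2.08 FPKM. POU5F1 stayed at or under 0.269 FPKM and NANOG at or under 0.0073 FPKM. Mesenchyme markers summed to 24.0 to 26.3 FPKM and 25.5 to 28.2 FPKM, intestinal markers to 33.6 to 38.9 FPKM and 39.5 to 41.5 FPKM, and endothelial markers to at most 0.126 FPKM. In the hepatocyte, pluripotency, mesenchyme and intestine lists 0 markers passed with limma, and 1 intestinal marker was higher with voom. The intestinal factor CDX2 had 7.68 ± 2.9 FPKM in Control and 13.4 ± 0.84 FPKM with K-3 (SD, n = 3 per group; limma adjusted p = 0.0929). The part of other cells in the results below was not tested. In such bulk libraries, fewer cells of a type and less RNA per cell cannot be told apart.

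With K-3, 5 of the 33 members fell and 0 rose. Those that fell were MVD, HMGCS1 and ACAT2 of the mevalonate steps, LSS of the squalene steps and the phosphatidate phosphatase gene LPIN1. No gene of fatty acid synthesis passed the test. Of all 12989 genes tested, 0.901% were called lower and 1.14% higher (limma on log2(FPKM + 1), Benjamini-Hochberg adjusted p under 0.05, two-sided), against 15.2% of the members called lower. At an unadjusted p under 0.05, 16 members were lower and 1, GGPS1, was higher, against 10.4% and 11.7% of all tested genes. The calls depended on which libraries and genes entered the test. With no filter on low values, 0 members and 0 of 35481 genes were called lower by limma, with 17 members and 2268 genes lower at an unadjusted p under 0.05; voom with the filter called 6 members. Without Control replicate 1, 5 members were called lower, with STARD4 in place of LSS, and without Control replicate 2 the number was also 5. Without Control replicate 3 or any 1 of K-3 replicates 1, 2 and 3 it was 0, with limma adjusted p-values of 0.0813 to 0.166 for the 5 genes. Over all genes, 446 were called lower without Control replicate 1, 227 without Control replicate 2, 10 without Control replicate 3, and 5, 0 and 3 without K-3 replicates 1, 2 and 3. The split of all calls was 117 lower and 148 higher, and with libraries rescaled without mitochondrial-encoded genes it was 152 lower and 117 higher; with trimmed means of M values it was 108 lower and 189 higher. In those scalings 7 and 4 members were called lower, against 1.17% and 0.83% of all genes. Voom on fragments called 6 members lower against 2.77% of all genes, a test of protein-coding genes alone 9 against 2.58%, and a pseudocount of 0.1 the same number of 5 against 0.855%. With a minimum mean of 5 FPKM the number was 5 of 28 members against 2.25%.

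The direction was shared more widely than the calls. The log2 fold change was negative in 30 of 33 members, against 45.4% of all tested genes, and the median was -0.12 against 0.01. In 21 members all 3 K-3 libraries lay below all 3 Control libraries, as in 12% of tested genes; in 1 member they lay above, as in 15.4%; and in 11 members the groups overlapped. Control replicate 1 was the highest of the 6 libraries in 22 members and in 16 of the 19 sterol enzymes. The same count was not made over all tested genes, so it is not read as a trait of the members.

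**Figure D2:**
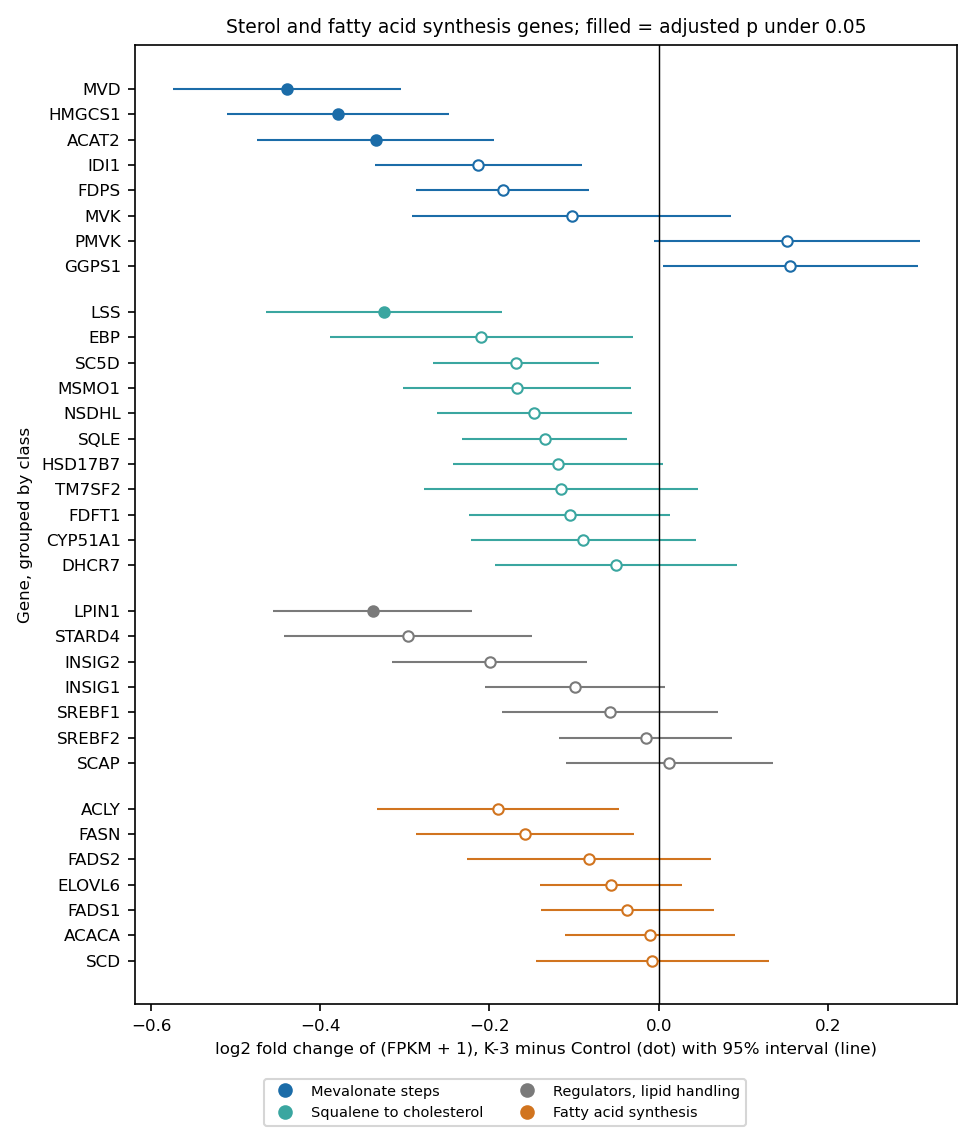
Log2 fold change of FPKM + 1, K-3 minus Control, with its 95% interval for each of the 33 members, grouped by class; filled dots passed the test at an adjusted p under 0.05. The filled dots are MVD (-0.44), HMGCS1 (-0.38), ACAT2 (-0.33), LSS (-0.32) and LPIN1 (-0.34), and PMVK, GGPS1 and SCAP lie above 0.

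Of the mevalonate steps, 3 of 8 genes fell and 5 did not pass. ACAT2, the cytosolic thiolase that joins 2 acetyl-CoA units, stood at 25.9, 22.6 and 22.5 FPKM in Control and at 18.1, 18.5 and 19.05 FPKM with K-3. All 3 K-3 values were below the lowest Control value, and Control replicate 1 was the highest. The level fell by 21.7% (log2 fold change -0.33, SE 0.06, limma adjusted p = 0.0444). ACAT2 shares 9.23% of its exon bases with TCP1 on the opposite strand. It also shares 33.9% with SOD2-OT1 and 26.5% with a SOD2 entry, both on the opposite strand. Those had means of 0 and 0.0085 FPKM. The sources used here do not say whether counting used the strand. TCP1 had 31 ± 1.5 FPKM in Control and 31.6 ± 0.33 FPKM with K-3 (SD, n = 3 per group).

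HMGCS1, which makes HMG-CoA from the product of ACAT2, stood at 112.6, 104.4 and 106.6 FPKM in Control and at 78.3, 87.2 and 82.8 FPKM with K-3. Every K-3 library lay below the lowest Control library. It fell by 23.3% (log2 fold change -0.38, SE 0.06, limma adjusted p = 0.0303). MVD, the decarboxylase that yields isopentenyl diphosphate, stood at 24.3, 21.9 and 22.8 FPKM in Control and at 15.8, 16.5 and 17.8 FPKM with K-3, again without overlap. It fell by 27.4%, the largest change of any member (log2 fold change -0.44, SE 0.06, limma adjusted p = 0.0254).

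The isomerase IDI1 (25.3 ± 1.5 against 21.7 ± 0.64 FPKM, log2 fold change -0.21, limma adjusted p = 0.0808) and the farnesyl diphosphate synthase FDPS (14.5 ± 0.33 against 12.6 ± 0.53 FPKM, -0.18, limma adjusted p = 0.0757) did not pass, although their groups did not overlap. MVK, mevalonate kinase, stood at 4.69, 3.77 and 3.61 FPKM in Control and at 3.67, 3.65 and 3.65 FPKM with K-3. Its groups overlapped, and only Control replicate 1 stood apart (log2 fold change -0.10, 95% interval -0.29 to 0.09). Without that library the log2 fold change of MVK was -0.01, and without Control replicate 3 it was -0.16. MVK shares 4.72% of its exon bases with MMAB (mean 5.45 FPKM) on the opposite strand. PMVK, the kinase between MVK and MVD, had 7.6 ± 0.6 FPKM in Control and 8.55 ± 0.58 FPKM with K-3 (0.15, 95% interval -0.01 to 0.31). GGPS1, which lengthens farnesyl diphosphate for protein prenylation rather than for sterols, stood at 7.5, 6.16 and 6.98 FPKM in Control and at 7.67, 7.86 and 7.73 FPKM with K-3. It was the 1 member with every K-3 library above every Control library, and it did not pass (0.16, limma adjusted p = 0.217). Without Control replicate 2 its value was 0.088. GGPS1 shares 37.3% of its exon bases with TBCE on the same strand, so its level is uncertain.

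Of the 11 genes from squalene to cholesterol, 1 fell and 10 did not pass, but all 11 had a negative log2 fold change (median -0.13). LSS, which closes squalene epoxide to lanosterol, stood at 24.9, 21.9 and 24.1 FPKM in Control and at 17.7, 18.8 and 19.6 FPKM with K-3. The groups did not overlap. LSS fell by 21.1% (log2 fold change -0.32, SE 0.06, limma adjusted p = 0.0463), and it was the call nearest the threshold: its adjusted p was 0.0507 without Control replicate 1 and 0.0519 with libraries scaled by trimmed means of M values.

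SC5D, a desaturase of the late sterol steps, stood at 12.02, 11.9 and 11.9 FPKM in Control and at 10.4, 10.1 and 11.05 FPKM with K-3, without overlap (log2 fold change -0.17, limma adjusted p = 0.085). The squalene-forming enzyme FDFT1 had -0.11, the squalene epoxidase SQLE -0.13, the methyl oxidase MSMO1 -0.17, the dehydrogenase NSDHL -0.15 and the isomerase EBP -0.21 on the log2 scale; none passed, and in each the groups did not overlap. The reductase TM7SF2 had -0.12, with overlapping groups. Single libraries weighed on 3 of these values: without Control replicate 1, FDFT1 had -0.058 and EBP -0.13, and without K-3 replicate 1, TM7SF2 had -0.052. DHCR7, the reductase of the last step, stood at 39.2, 35.1 and 34.6 FPKM in Control and at 34.4, 33.7 and 36.97 FPKM with K-3. Its groups overlapped, and its log2 fold change of -0.05 (95% interval -0.19 to 0.09) turned to 0.0051 without Control replicate 1.

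Both remaining sterol genes have uncertain levels. CYP51A1, the lanosterol demethylase, was the lowest member at 2.25 ± 0.11 FPKM in Control and 2.05 ± 0.074 FPKM with K-3 (log2 fold change -0.09, limma adjusted p = 0.396). It shares 79.4% of its exon bases with AC000120.2 on the same strand, a gene listed at 0 in every library. HSD17B7, a keto reductase, had 4.74 ± 0.22 FPKM and 4.29 ± 0.24 FPKM (-0.12, limma adjusted p = 0.247), while its transcribed copy HSD17B7P2 had 6.35 ± 1.1 FPKM and 3.78 ± 0.58 FPKM (-0.61, limma adjusted p = 0.0592). Fragments can be split between the pair. Their summed FPKM was 9.64, 11.3 and 12.3 in Control and 7.82, 8.49 and 7.89 with K-3, so it did not overlap between the groups. The copy has a length of 1506 bases and HSD17B7 of 4778 bases, so a fragment of the copy weighs more in this sum.

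**Figure D3:**
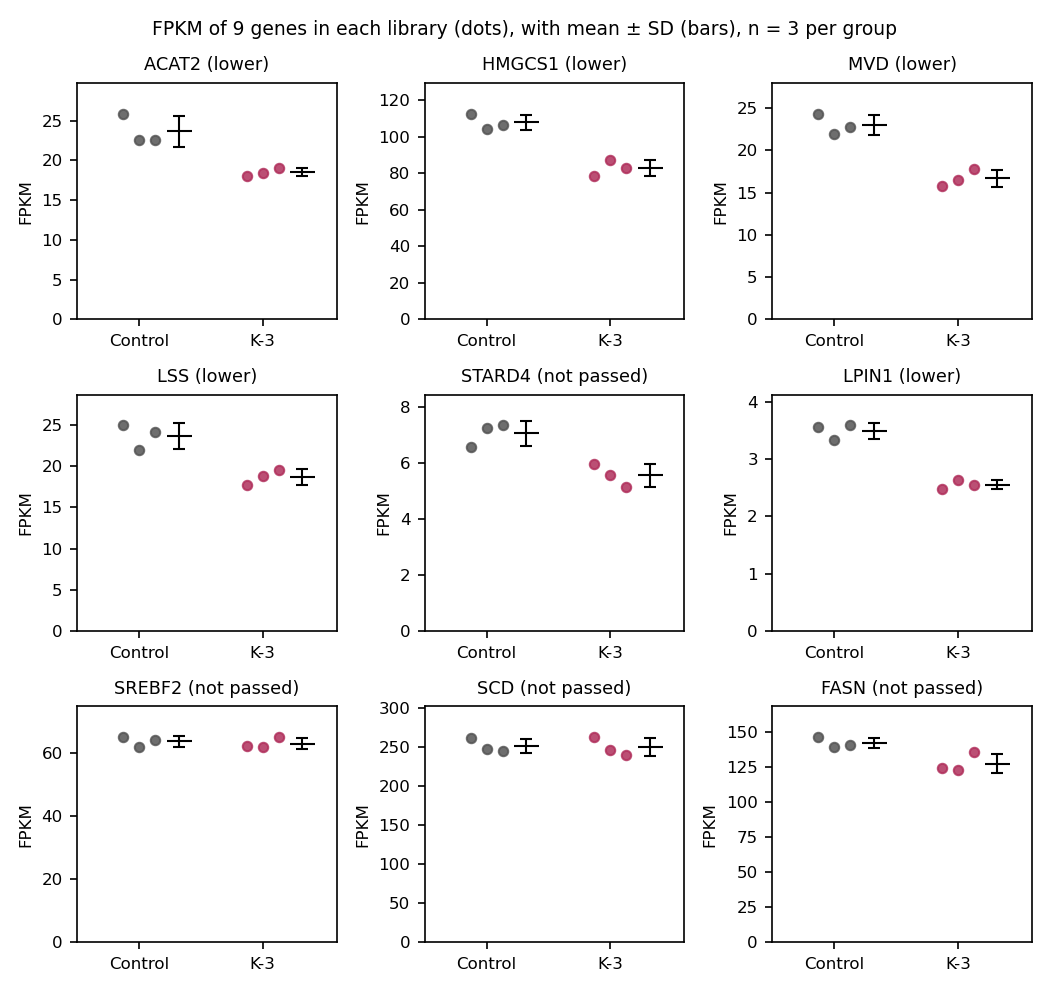
FPKM of 9 members in each library (dots), with the mean and SD of 3 libraries (bars), on axes that start at 0. In ACAT2, HMGCS1, MVD, LSS, STARD4, LPIN1 and FASN every K-3 dot lies below every Control dot, while SREBF2 and SCD overlap.

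Of the 7 regulators and lipid-handling genes, 1 fell and 6 did not pass (median log2 fold change -0.10). LPIN1, a phosphatidate phosphatase that also restrains nuclear SREBP, stood at 3.56, 3.33 and 3.59 FPKM in Control and at 2.48, 2.63 and 2.55 FPKM with K-3. The groups did not overlap, and LPIN1 fell by 26.9% (log2 fold change -0.34, SE 0.05, limma adjusted p = 0.0304). Since 1 is added to each value, the log2 scale understates the change of such a low gene, which was -0.44 by voom on fragments. STARD4, a carrier of sterols between membranes, stood at 6.55, 7.26 and 7.34 FPKM in Control and at 5.96, 5.57 and 5.14 FPKM with K-3. Its groups did not overlap, yet it did not pass (-0.30, limma adjusted p = 0.0607); it passed without Control replicate 1 (limma adjusted p = 0.0356) and by voom (adjusted p = 0.0222).

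None of the 5 genes of the SREBP switch itself passed the test. With 0.901% of all tested genes called lower and 1.14% higher, 0 calls among 5 genes is near the background. SREBF2 had 63.6 ± 1.7 FPKM in Control and 63 ± 1.8 FPKM with K-3 (log2 fold change -0.02, 95% interval -0.12 to 0.09), and SREBF1 had 10 ± 0.19 FPKM and 9.6 ± 0.7 FPKM (-0.06, 95% interval -0.19 to 0.07). SCAP, the escort that senses sterols, stood at 26.2, 24.5 and 24.4 FPKM in Control and at 23.9, 25.2 and 26.7 FPKM with K-3 (0.01, 95% interval -0.11 to 0.14). In all 3 genes the groups overlapped. SREBF1 shares 6.92% of its exon bases with RAI1 (mean 11.6 FPKM) on the opposite strand, and SREBF2 shares 3.71% with SREBF2-AS1 (mean 2.54 FPKM). Whether counting used the strand is not known. The unadjusted interval of SREBF1 reaches the median of the sterol enzymes, -0.15, and those of SREBF2 and SCAP do not. The intervals of SREBF2 and SCAP do hold the changes of some sterol enzymes, such as DHCR7 (-0.05) and CYP51A1 (-0.09). The signs of SREBF2 and SCAP turned in some alternatives, as did those of ACACA and SCD. INSIG1 (19.4 ± 0.74 against 18 ± 0.64 FPKM, -0.10) and INSIG2 (4.65 ± 0.092 against 3.93 ± 0.23 FPKM, -0.20, limma adjusted p = 0.0828) did not pass, with K-3 below Control in every library of both genes.

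In the fatty acid branch 0 of 7 genes passed with limma and 0 with voom, and 2 were lower at an unadjusted p under 0.05. Over all tested genes the shares called lower were 0.901%, 2.77% and 10.4%, so 0 calls among 7 genes is near the background. All 7 log2 fold changes were negative, with a median of -0.06, against -0.15 for the 19 sterol enzymes and 0.01 for all tested genes. ACLY, which splits citrate into cytosolic acetyl-CoA and so feeds both branches, stood at 96.0, 83.5 and 89.7 FPKM in Control and at 75.6, 78.6 and 81.2 FPKM with K-3, without overlap (-0.19, limma adjusted p = 0.139). FASN, fatty acid synthase, stood at 146.6, 139.4 and 140.7 FPKM in Control and at 124.2, 122.7 and 135.5 FPKM with K-3, also without overlap (-0.16, limma adjusted p = 0.159).

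The rest of the branch lay closer to 0. SCD, the desaturase that makes oleate, was the highest member, at 262, 247 and 245 FPKM in Control and at 263, 246.8 and 240.4 FPKM with K-3. Its groups overlapped (-0.01, 95% interval -0.14 to 0.13). ACACA, the carboxylase that makes malonyl-CoA, had 15.2 ± 0.31 FPKM and 15.1 ± 0.63 FPKM (-0.01, 95% interval -0.11 to 0.09). The elongase ELOVL6 had -0.06, with groups that did not overlap, and the polyunsaturated fatty acid desaturases FADS1 and FADS2 had -0.04 and -0.08, with overlap. Without Control replicate 1 those were -0.0093 and -0.032, and without Control replicate 2 they were -0.06 and -0.14. FADS1 and FADS2 share 490 exon bases on opposite strands.

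Set side by side, 4 of 19 sterol enzymes and 0 of 7 fatty acid genes were called lower, and the K-3 libraries lay below the Control libraries in 14 and 3 of them. Of all tested genes 0.901% were called lower and 12% lay wholly below Control, so the absence of calls among 7 fatty acid genes is near the background, while 42.9% of them and 73.7% of the sterol enzymes lay wholly below Control. Within each library, the mean of log2(FPKM + 1) over the sterol enzymes, relative to its average over the 6 libraries, was 0.16, 0.03 and 0.04 in Control and -0.11, -0.08 and -0.05 with K-3. For the fatty acid genes it was 0.09, -0.003 and 0.03 in Control and -0.03, -0.06 and -0.03 with K-3. The sterol mean minus the fatty acid mean was 0.07, 0.04 and 0.01 in Control and -0.08, -0.02 and -0.02 with K-3. The groups did not overlap in this difference. Its group means differed by -0.08 with a pooled SD of 0.032, and no test was made because the members were chosen with results known. The sterol mean includes MVD, HMGCS1, ACAT2 and LSS, which had the largest falls of the branch. MVD, HMGCS1 and LSS were given as markers when the set was chosen, so the difference in part restates these genes. It was not computed without them. The difference of the branch medians was -0.09, and it lay between -0.11 and -0.08 when any 1 library was left out.

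**Figure D4:**
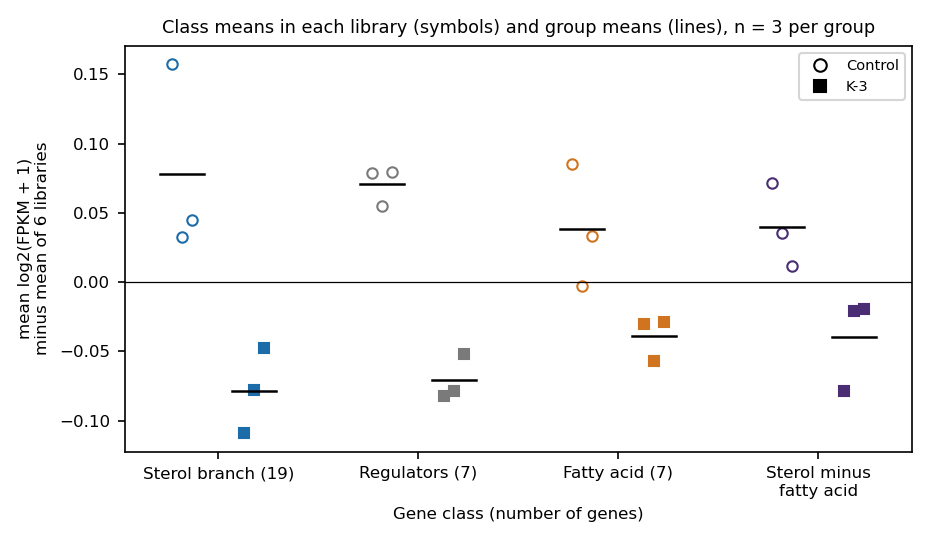
Mean log2(FPKM + 1) of each gene class in each library relative to the mean of the 6 libraries (open circles Control, filled squares K-3, lines group means, n = 3), and the sterol mean minus the fatty acid mean. The sterol class spans 0.16 to 0.03 in Control and -0.05 to -0.11 with K-3, and the fatty acid class lies closer to 0.

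The levels of the enzymes differed far more than their changes. In Control, SCD (251 ± 9.3 FPKM) and FASN (142 ± 3.8 FPKM) led, followed by MSMO1 (108.4 ± 4.6 FPKM), HMGCS1 (107.9 ± 4.2 FPKM) and ACLY (89.7 ± 6.3 FPKM). MSMO1 and HMGCS1 did not differ beyond their spread in Control, where they ranged from 104.1 to 113 FPKM and from 104.4 to 112.6 FPKM. With K-3 they no longer overlapped, at 91.3 to 102 FPKM and 78.3 to 87.2 FPKM. ACAT2, LSS and MVD stood within 1 SD of each other in Control, at 23.7, 23.7 and 23 FPKM, and at 18.5, 18.7 and 16.7 FPKM with K-3. At the low end were MVK (4.03 ± 0.58 FPKM), LPIN1 (3.49 ± 0.14 FPKM) and CYP51A1.

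**Figure D5:**
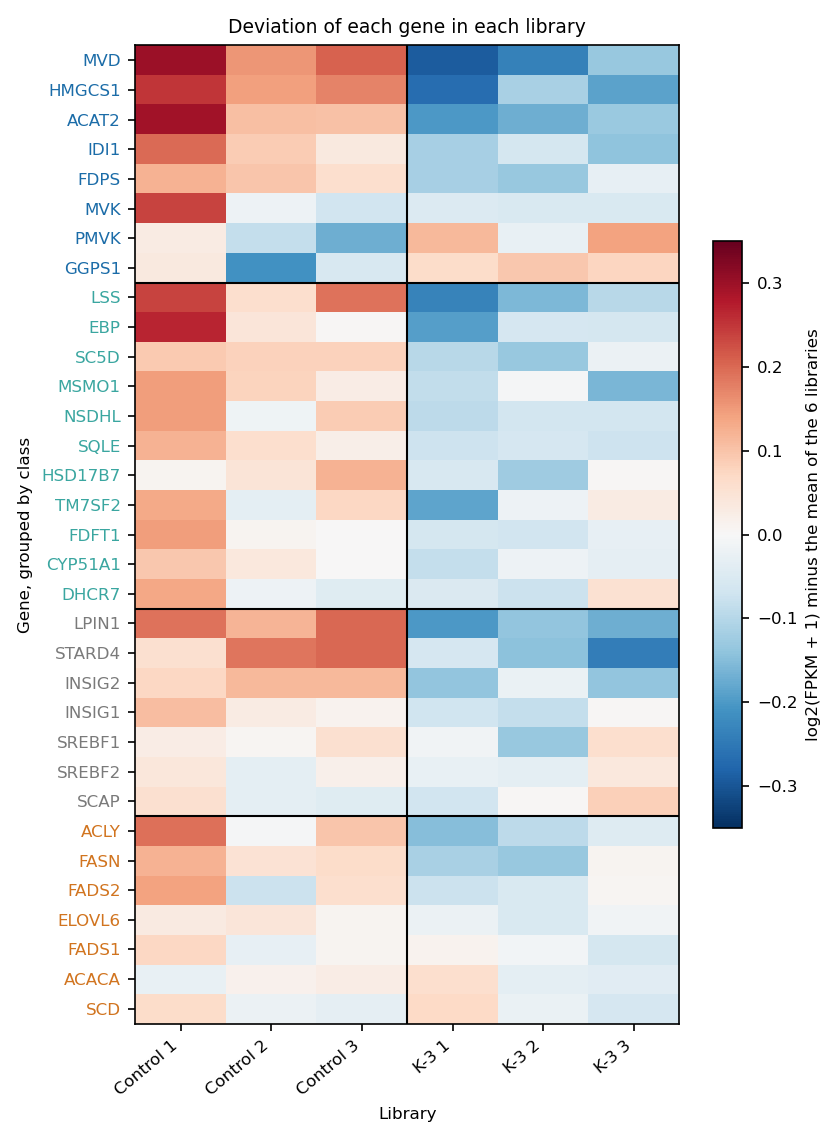
Log2(FPKM + 1) of each member in each of the 6 libraries minus the gene's mean over them (red higher, blue lower), with genes grouped by class and a line between Control and K-3. Rows of MVD, HMGCS1, ACAT2, LSS and LPIN1 are red in all 3 Control libraries and blue in all 3 K-3 libraries. Control 1 is the reddest column in 22 of 33 rows, a count not made over all tested genes.

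In 4 further lists of neighbouring pathways 0 genes passed with limma. Of all tested genes, limma called 0.901% lower and 1.14% higher, so 0 calls in such short lists is near the background. Voom called 2.77% of all tested genes lower, and 474 of 12989 higher. Counts at an unadjusted p under 0.05, here and for the markers, compare with 10.4% of all tested genes lower and 11.7% higher. Of 18 further fatty acid genes 0 passed with limma (median 0.04; 3 lower and 2 higher at an unadjusted p under 0.05; 0 lower and 2 higher by voom). GPAM, which starts triglyceride synthesis, had 6.84 ± 0.39 FPKM in Control and 8.16 ± 0.17 FPKM with K-3 (0.23, limma adjusted p = 0.062), ACSL1, which activates long-chain fatty acids, had 0.17, and FADS3 had -0.15. Of 12 tested genes of sterol export, esterification and lysosomal handling, 0 passed with limma (median 0.06; 2 lower and 3 higher at an unadjusted p under 0.05; 0 lower and 1 higher by voom). The lysosomal transporter NPC1 (-0.18) and the exporter ABCA1 (-0.16) both had a limma adjusted p of 0.0919, and SOAT2, which esterifies cholesterol, had 6.56 ± 1.1 FPKM and 9.07 ± 1.3 FPKM (0.42, limma adjusted p = 0.121). ABCG1 stayed at or under 0.0151 FPKM and was not tested.

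Of 11 genes that process or assist SREBP, 0 passed with limma or voom (median 0.04; 0 lower and 1 higher at an unadjusted p under 0.05). Among those with small p-values, ERLIN1 had a log2 fold change of 0.14 (limma adjusted p = 0.256) and NFYC, a subunit of NF-Y, had 0.06 (limma adjusted p = 0.444). Of 12 genes that use farnesyl or geranylgeranyl diphosphate, 0 passed with limma or voom (median 0.01; 1 lower and 0 higher at an unadjusted p under 0.05). RABGGTB, a subunit of the enzyme that prenylates Rab proteins, had -0.19 (limma adjusted p = 0.0848), COQ2 had 0.14 and ICMT 0.09.

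The deposited positions (build GRCh38) of the genes that fell are chr16:88651935-88663161 for MVD (ENSG00000167508), chr5:43289395-43313512 for HMGCS1 (ENSG00000112972) and chr21:46188141-46228824 for LSS (ENSG00000160285), each on the - strand. ACAT2 (ENSG00000120437) lies at chr6:159760328-159779055 and LPIN1 (ENSG00000134324) at chr2:11677595-11827409, both on the + strand. Each value sums the annotated exons of the gene.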

How the data were processed

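RNA was measured in 6 libraries, 3 Control and 3 with K-3, grouped by their sample titles. The deposited values are FPKM per gene, made by the authors; the submitters' processing notes name HISAT2 2.0.5, featureCounts 1.5.0-p3, DESeq2 1.20.0 and the build GRCh38. GENCODE release 29 has the IDs and positions of all 58735 genes. Each FPKM times gene length is a whole multiple (within 1e-06) of a step constant within a library, so whole fragments were computed. The library size behind the FPKM is not the fragment total. In Control replicate 1 it was 38177025, against 38809532 fragments in genes. Over the libraries these sizes lay -0.36% to 0.24% from sizes set by the median ratio of genes between libraries. In a gene of 1 kb, 3 fragments equal 0.0591 to 0.0834 FPKM; such floors cover counting error only.

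The 12989 genes averaging 1 FPKM or more were tested with limma 3.58.1 (R 4.3.3; lmFit, eBayes with trend) on log2(FPKM + 1), with Benjamini-Hochberg adjustment over all of them and a threshold of 0.05. The script was tested on simulated fragments. Pairs of libraries had a chi-square per degree of freedom of 6.04 to 28.6, so none agreed within sampling noise. Intervals are 95% and unadjusted. The members and lists were chosen with earlier results of these data known, so no list was tested as a set. Library values are printed for members that passed, for the 2 smallest p-values and the change nearest 0 in each class, and, chosen after their values were seen, for GGPS1 and HSD17B7 with its copy. From the other lists, up to 3 genes with the smallest p-values are named; 1 such gene is not reported here. Motifs were sought on both strands. A permutation test of 3 against 3 libraries cannot go below a two-sided p of 0.1 and was not used. Alternatives were another pseudocount, other filters, leaving out each library, the replicate number as a block, other scalings, protein-coding genes only and voom on fragments.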

Additional observations from a re-analysis of the deposited data

How the results depend on the processing

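The median log2 fold change of the sterol enzymes (-0.15) ranged from -0.18 to -0.13 over the 14 alternatives. That of the fatty acid genes (-0.06) ranged from -0.09 to -0.03, and the difference between the branches (-0.09) from -0.11 to -0.08. Each stayed negative and moved by less than the spread between libraries. Some alternatives could not move them. No filter on low values, the replicate block and protein-coding genes alone leave every member's fold change and sign as they were. The minimum mean of 5 FPKM keeps all the fatty acid genes, so their median could not move there either. Rescaling without mitochondrial-encoded genes, or by trimmed means of M values, changes all genes of a library by a common factor. That shifts both branches nearly alike, so the difference between them (-0.0914 and -0.0907, against -0.0909) could hardly move. The regulators' median (-0.10) was -0.058 with a minimum mean of 5 FPKM, which leaves LPIN1 and INSIG2 out, -0.129 with libraries rescaled without mitochondrial-encoded genes, and -0.126 to -0.069 with 1 library left out. The calls were less stable. With no filter on low values (35481 genes tested) 0 members and 0 genes in either direction were called by limma; at an unadjusted p under 0.05, 17 members and 2268 genes were lower and 1904 genes higher. With the replicate number as a block, 0 members and 0 genes in either direction were called, with 14 members and 1014 genes lower and 1120 genes higher at an unadjusted p under 0.05. Same-numbered libraries did not deviate together (correlations -0.364, -0.0335 and -0.113, and 0 of 6 libraries correlated best with their own number). These values gave no sign of pairing, but with 3 libraries per group they cannot exclude that the numbers pair the samples. With 1 library left out, 0 to 5 members and 0 to 446 genes were called lower and 0 to 271 higher. Protein-coding genes alone, a smaller number of tests, gave 9 members, 289 genes lower and 405 higher. Voom gave 6 members, 360 genes lower and 474 higher, and a minimum mean of 5 FPKM gave 237 higher. No alternative called a member higher, and MVD, HMGCS1, ACAT2, LSS and LPIN1 kept a negative sign wherever they were tested. Apart from DHCR7, SREBF2, SCAP, ACACA and SCD, each with a main change between -0.05 and 0.01, members kept their sign in every alternative that tested them. The cause of the differences between alternatives was not tested. Every member had at least 277 fragments in each library, and each group had 3 libraries.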
